A study of Rattus norvegicus with 12 samples.

Results

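The myosin chains and myosin-binding protein C genes of the thick filament were described here in neonatal rat ventricular myocytes (NRVMs). They were taken as every row of the deposited expression matrices whose gene symbol was Myh6, Myh7, Myh7b, Myl2, Myl7, Myl3, Myl4, Mybpc3 or Mybpc2. All 9 symbols were found among 18483 genes, and all 9 passed the filter on low counts that kept 13967 genes for testing. The RNA-seq series asked how a loss of the zinc transporter gene Slc39a2 changed the transcriptome of cultured myocytes under hypertrophic stimulation. Cells from Sprague-Dawley rat neonates were transfected with a non-targeting siRNA (siNeg) or with an siRNA against Slc39a2 (siSlc39a2), and were left untreated or given phenylephrine (PE), an agonist of the alpha-adrenergic receptor, for 36 h beginning 12 h after transfection. These times are those of the sample labels, and the study's culture methods give a longer PE treatment. The 4 groups are called siNeg, siNeg PE, siSlc39a2 and siSlc39a2 PE, and each had 3 samples, given by the study as independent biological replicates. The cultures were primary ventricular cells enriched on a density gradient and not sorted, and every group, the controls included, had been transfected.

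Myosin is the motor of the sarcomere. A pair of heavy chains forms its heads and tail, and each head binds an essential and a regulatory light chain, while myosin-binding protein C holds the thick filament and limits how freely the heads reach actin. Rodent ventricles exchange the slow beta heavy chain, encoded by Myh7, for the fast alpha heavy chain, encoded by Myh6, around birth, and a return of the beta chain is a classical sign of hypertrophy. Myl2 and Myl3 are the ventricular light chains, Myl7 and Myl4 are those of the atrium and, for Myl4, of the fetal heart, Mybpc3 is the cardiac and Mybpc2 the fast skeletal form of the binding protein.

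Sequences are shown for 2 features of these loci, the microRNAs that lie within heavy chain genes and the upstream bases of members whose levels diverged within a pair of isoforms. All are from RefSeq, assembly GRCr8, which is not the build of the deposited values. The mature microRNAs below are encoded on the same strand as their host genes and were not measured. Capitals mark the seed, bases 2 to 8, which is shared by the pair within Myh6 and Myh7 and differs in the one within Myh7b.
rno-miR-208a-3p, within Myh6: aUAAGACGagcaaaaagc
rno-miR-208b-3p, within Myh7: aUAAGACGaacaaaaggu
rno-miR-499-5p, within Myh7b: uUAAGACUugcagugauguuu

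The next sequences are the 250 bases before the annotated gene start, 5′ to 3′ on the gene's strand. Capitals mark the MCAT motif, CATTCC on either strand, which TEAD factors are known to bind and which 12.1% of 33469 rat promoters held in a window of this length. Of the members, 8 had a promoter entry (Myl2 had none), and MCAT was found upstream of Mybpc2, Myl3 and Myh6. Mybpc2, on the minus strand at chr1:104154102-104154351, had 1 match. Myl3, on the plus strand at chr8:119616844-119617093, had 2 matches and, uncapitalised, 1 CArG box, the motif of serum response factor that 1.5% of promoters held. Myl4, on the plus strand at chr10:89975900-89976149, had no match to either motif. A match describes letters and is not evidence of binding.
Mybpc2: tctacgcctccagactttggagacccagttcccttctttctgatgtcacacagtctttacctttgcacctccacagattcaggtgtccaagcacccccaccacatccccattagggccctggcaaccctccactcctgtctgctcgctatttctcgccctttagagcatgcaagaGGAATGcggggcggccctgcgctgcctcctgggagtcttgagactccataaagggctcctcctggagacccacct
Myl3: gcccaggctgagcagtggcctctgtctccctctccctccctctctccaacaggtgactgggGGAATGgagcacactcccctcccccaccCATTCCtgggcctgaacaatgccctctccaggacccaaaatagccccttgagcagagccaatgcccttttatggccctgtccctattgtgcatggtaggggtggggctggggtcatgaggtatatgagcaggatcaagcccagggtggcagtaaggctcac
Myl4: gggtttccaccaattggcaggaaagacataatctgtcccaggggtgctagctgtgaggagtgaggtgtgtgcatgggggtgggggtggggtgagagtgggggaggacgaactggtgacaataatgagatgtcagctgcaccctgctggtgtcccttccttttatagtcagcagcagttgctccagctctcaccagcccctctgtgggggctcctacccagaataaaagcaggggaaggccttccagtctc

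The libraries held 24065539 to 28603854 expected counts, and Myh6 and Myh7 together took between 2.14% and 3.03% of them. The targeted gene, Slc39a2, was counted 50, 50 and 59 times with siNeg but 21, 11 and 2 times with siSlc39a2, and under PE 95, 198 and 182 times with siNeg but 31, 25 and 38 times with siSlc39a2, so every knockdown sample was below every control sample under the same treatment. The hypertrophy marker Nppb, the gene of B-type natriuretic peptide, had a mean of 14 FPKM (fragments scaled to transcript length and library size) with siNeg, 546 with siNeg PE, 109 with siSlc39a2 and 2752 with siSlc39a2 PE. The summed FPKM of 10 cardiomyocyte markers outside the members was 20063 to 22734 with siNeg, 27982 to 30004 with siNeg PE, 21181 to 21824 with siSlc39a2 and 32252 to 35250 with siSlc39a2 PE, and none of them was at 0. Actc1 alone had group means of 7296, 13686, 7398 and 18715 in the same order, so the sum follows it closely. Of the 10 cardiomyocyte markers, 4 were higher and 2 lower under PE in siNeg, and 1 was higher and 4 lower after knockdown without PE. The sum of 10 fibroblast markers was 2598 to 3538, 1891 to 2444, 1156 to 1259 and 777 to 1083 in the same order. Col1a1 alone had group means of 1779, 1162, 611 and 418. Of the 10 fibroblast markers, 2 were higher and 5 lower under PE in siNeg. After knockdown in either treatment 1 was higher, Tcf21, and 8 were lower. By the test described below, 49.7% of all tested genes passed under PE in siNeg. After knockdown 49.2% passed without PE and 57.3% with PE. Sums of 8 macrophage markers lay between 28.6 and 99.2, highest in siNeg, those of 6 smooth muscle markers between 732 and 1716, also highest in siNeg, and those of 8 endothelial markers between 4.3 and 7.32. In bulk RNA, fewer cells of a type and less RNA per cell cannot be told apart, and the part of these cell types in the results below was not tested.

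Unless a unit is named, changes are log2 fold changes of TMM-scaled counts from the edgeR quasi-likelihood test with its standard error, and adjusted p is Benjamini-Hochberg adjusted over 13967 genes with a threshold of 0.05. Under PE in siNeg cells, 8 of the 9 members passed (3 higher, 5 lower), where 49.7% of all tested genes passed (24% higher, 25.7% lower). Under PE in siSlc39a2 cells 7 passed (3 higher, 4 lower), with 60% of all genes (30.7% higher, 29.3% lower). After knockdown without PE 6 passed (1 higher, 5 lower), with 49.2% of all genes (22.8% higher, 26.4% lower), and after knockdown with PE 7 passed (1 higher, 6 lower), with 57.3% (29.2% higher, 28.1% lower). With a log2 fold change beyond 1 as a further limit, 1, 3, 4 and 3 members passed in the same order, against 6.6%, 10.5%, 9.78% and 11.6% of all genes. The median log2 fold change of the members was -0.25, -0.15, -0.35 and -0.39, against -0.01, 0.01, -0.02 and 0.01 over all genes. Each comparison of PE shares a group of samples with each comparison of knockdown, so their values are given side by side and are not independent.

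**Figure D1:**
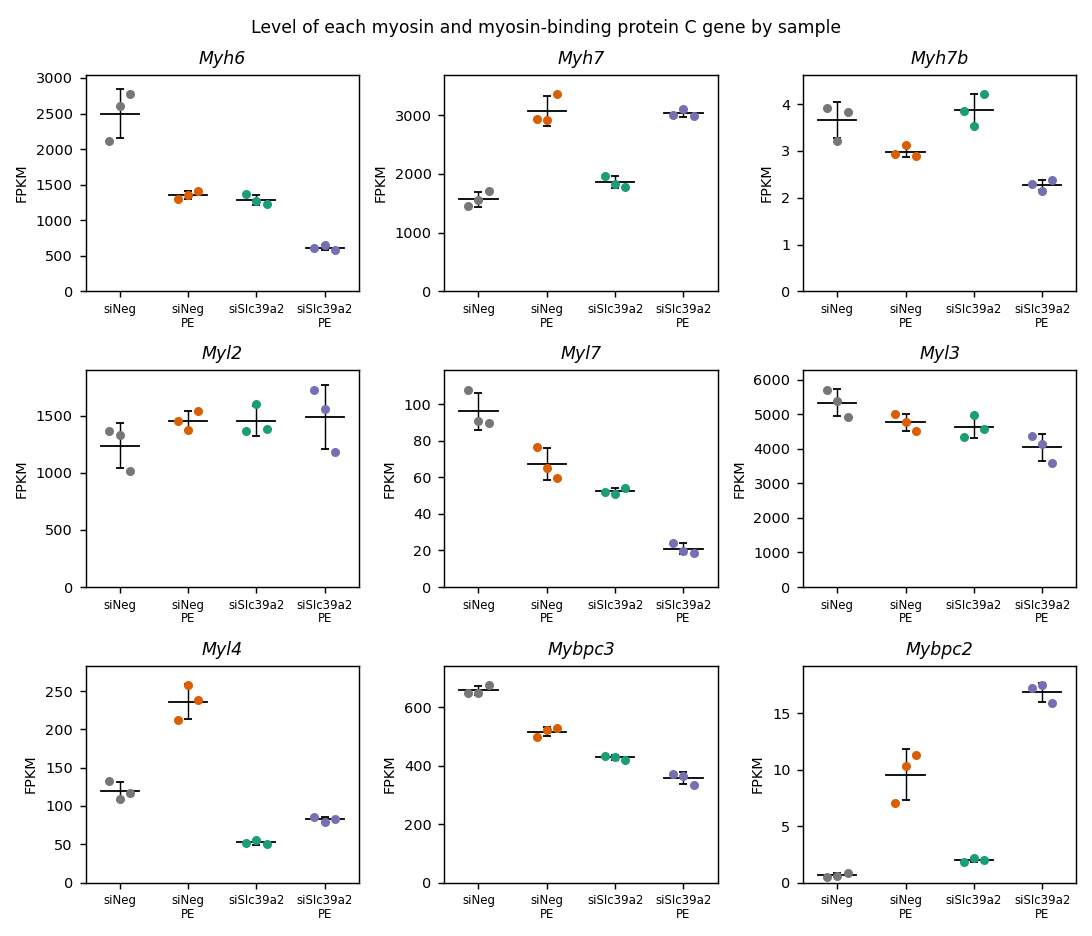
FPKM of the 9 genes (vertical axes, each from 0) in the 4 groups. Points are the 3 samples of a group, horizontal lines the means and bars 1 SD. Myh6 was between 583 and 648 in siSlc39a2 PE and between 2109 and 2770 in siNeg, while the ranges of Myl2 in siSlc39a2 PE overlapped those of every other group.

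Myh6, the alpha heavy chain gene, was lower under PE and after knockdown, and lowest with both. Its FPKM was 2109, 2608 and 2770 with siNeg, 1298, 1358 and 1414 with siNeg PE, 1368, 1269 and 1228 with siSlc39a2, and 609, 648 and 583 with siSlc39a2 PE. The siNeg samples were all above the others and the siSlc39a2 PE samples all below them, whereas the 2 middle groups overlapped. PE lowered Myh6 1.93-fold in siNeg cells (log2 -0.95 ± 0.09, adjusted p = 5.12e-06) and 2.02-fold in siSlc39a2 cells (-1.01 ± 0.09, adjusted p = 1.48e-06). Knockdown lowered it 2.14-fold without PE (-1.10 ± 0.09, adjusted p = 4.50e-07) and 2.23-fold with PE (-1.16 ± 0.09, adjusted p = 2.69e-07). The interaction, the knockdown change with PE less that without, was -0.06 ± 0.12 with a 95% interval from -0.32 to 0.20, and did not pass by edgeR (adjusted p = 0.876).

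Myh7, the beta heavy chain gene, was higher under PE in both siRNA groups. Its FPKM was 1448, 1561 and 1702 with siNeg, 2932, 2918 and 3353 with siNeg PE, 1971, 1820 and 1784 with siSlc39a2, and 3008, 3107 and 2975 with siSlc39a2 PE. The PE samples were all above the untreated ones, and the 2 PE groups overlapped. In counts the rise was 1.49-fold in siNeg cells (0.57 ± 0.07, adjusted p = 3.49e-05 by edgeR) and 1.45-fold in siSlc39a2 cells (0.54 ± 0.07, adjusted p = 3.21e-05). With limma on quantile-normalized log2(count + 1), where Myh7 ranked 1 or 2 of all genes in every sample, the values were 0.20 (adjusted p = 0.0859) and -0.30 (adjusted p = 0.0134). Knockdown changes of Myh7 did not pass in edgeR, at -0.05 without PE (95% interval -0.19 to 0.10, adjusted p = 0.564) and -0.08 with PE (-0.23 to 0.06, adjusted p = 0.307). With limma on log2(count + 1) the value with PE was -0.30 and passed (adjusted p = 0.0139).

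The untreated knockdown comparison of Myh7 depended on the scale. FPKM ranges of siNeg and siSlc39a2 did not overlap, with siSlc39a2 higher by 0.24 on the log2 scale of mean FPKM and by 0.10 on that of mean CPM (counts relative to the library total) without TMM, whereas the TMM-scaled value was -0.05. TMM factors alone moved every gene of this comparison by 0.14 on the log2 scale. With limma on quantile-normalized log2(FPKM + 1) the difference was 0.51 and passed (adjusted p = 0.00221), so no direction is given for it here.

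Counts and FPKM of the same gene differ by a transcript length and the library total, and for Myh7 this length was not constant. The length implied by count over FPKM was 9470, 8048 and 7813 bases in siNeg, 7143, 6597 and 6490 in siNeg PE, 7296, 7559 and 7936 in siSlc39a2, and 6544, 6414 and 6514 in siSlc39a2 PE. Untreated samples were all longer than PE samples. The coefficient of variation over the 12 samples was 12.5% for Myh7, above that of 99.5% of 9942 well-covered genes, whose median was 0.688%, and 0.182% to 1.16% for the other 8 members. The PE difference of Myh7 in siNeg was accordingly 0.65 in unscaled CPM and 0.97 in FPKM, both on the log2 scale, and 0.48 against 0.71 in siSlc39a2 cells. For the other members the 2 scales differed by at most 0.02. Expected counts of Myh6, Myh7, Myh7b and Mybpc3 were not all whole numbers, so reads shared with other sequences entered them and their levels are uncertain to that extent, while those of Myl2, Myl7, Myl3, Myl4 and Mybpc2 were whole in every sample.

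**Figure D2:**
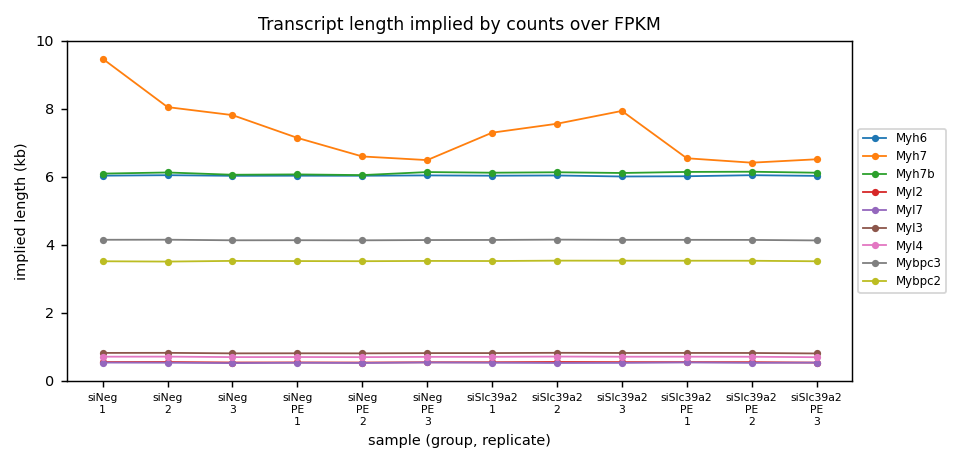
Transcript length in kilobases (vertical axis, from 0) implied by the expected count, the FPKM and the library total for each gene in each of the 12 samples (horizontal axis). The Myh7 line runs from 9470 bases in siNeg replicate 1 to 6414 in siSlc39a2 PE replicate 2, and the lines of the other 8 genes are level.

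The ratio of Myh7 to Myh6 rose with PE and with knockdown. In FPKM it was 0.686, 0.598 and 0.614 with siNeg, 2.26, 2.15 and 2.37 with siNeg PE, 1.44, 1.43 and 1.45 with siSlc39a2, and 4.94, 4.79 and 5.11 with siSlc39a2 PE. The 4 groups were separate, in the order siNeg, siSlc39a2, siNeg PE and siSlc39a2 PE. Myh7 made up 38.7% ± 1.74 (SD, n = 3) of the summed FPKM of both genes in siNeg, 59.1% ± 0.162 in siSlc39a2, 69.3% ± 1.05 in siNeg PE and 83.2% ± 0.441 in siSlc39a2 PE. These shares carry the sample-dependent length of Myh7. In expected counts the ratio in siNeg was 1.08, 0.796 and 0.796.

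PE raised the ratio 3.57-fold in siNeg cells and 3.43-fold in siSlc39a2 cells, a mean log2 difference of 1.81 (exact two-sided permutation test within siRNA groups, p = 0.005, adjusted p = 0.005 over 8 ratio tests). Knockdown raised it 2.28-fold without PE and 2.19-fold with PE, a mean of 1.16 (exact permutation within treatments, p = 0.005, adjusted p = 0.005). This is the smallest p that the 400 permutations allow, and a single comparison of 3 with 3 samples cannot go below p = 0.1 in an exact test. In expected counts the log2 difference of the ratio under PE was 1.52 in siNeg and 1.55 in siSlc39a2 cells, and that under knockdown 1.05 without and 1.08 with PE. Summed FPKM of both heavy chains was 4066 ± 467 with siNeg, 4424 ± 298 with siNeg PE, 3147 ± 171 with siSlc39a2 and 3643 ± 101 with siSlc39a2 PE (SD, n = 3).

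**Figure D3:**
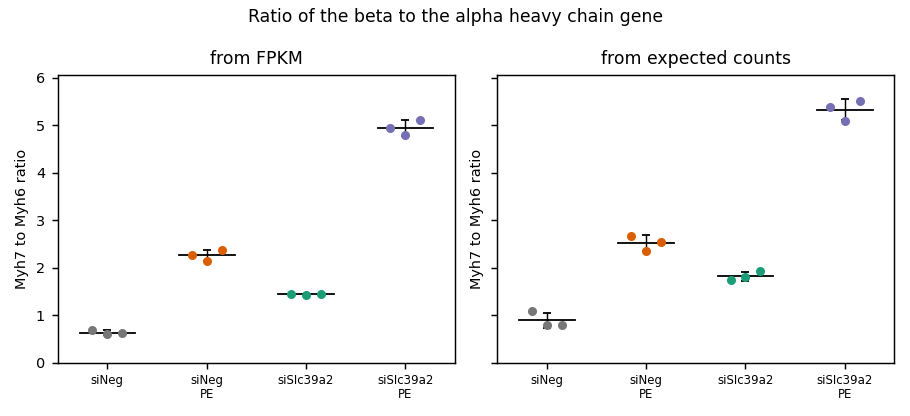
Ratio of Myh7 to Myh6 (vertical axes, linear from 0) from FPKM on the left and from expected counts on the right. Points are the 3 samples of each group, lines the means and bars 1 SD. The group means were 0.633, 2.26, 1.44 and 4.95 from FPKM and 0.89, 2.52, 1.82 and 5.33 from counts, in the order of the horizontal axis.

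Myh7b, a slow heavy chain gene expressed at a low level in heart, had 3.91, 3.22 and 3.84 FPKM in siNeg, 2.93, 3.13 and 2.9 in siNeg PE, 3.86, 3.54 and 4.21 in siSlc39a2, and 2.3, 2.15 and 2.37 in siSlc39a2 PE. The siSlc39a2 PE samples were all below the others, and the untreated groups overlapped. PE lowered it in siNeg (-0.37 ± 0.09, adjusted p = 0.00616 by edgeR) and in siSlc39a2 cells (-0.70 ± 0.09, adjusted p = 5.42e-05). Knockdown lowered it with PE (-0.39 ± 0.09, adjusted p = 0.00332), and without PE the value was -0.06 with a 95% interval from -0.26 to 0.14.

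Of the regulatory light chains, which bind the neck of the myosin head and are switched by phosphorylation, Myl2 had no change that passed edgeR and Myl7 fell in every comparison. Myl2 had 1371, 1333 and 1016 FPKM in siNeg, 1456, 1376 and 1542 in siNeg PE, 1368, 1609 and 1390 in siSlc39a2, and 1730, 1563 and 1185 in siSlc39a2 PE. Only siNeg and siNeg PE were separate among the 4 comparisons, by a narrow margin. Its 4 log2 fold changes were between 0.03 and 0.14, and their 95% intervals together spanned -0.29 to 0.46. With limma on log2(FPKM + 1), Myl2 was higher under PE in siNeg (0.39, adjusted p = 0.0139) and after knockdown without PE (0.45, adjusted p = 0.00563).

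Myl7, the atrial regulatory light chain gene, had 108, 90.9 and 89.8 FPKM in siNeg, 76.7, 65.1 and 59.7 in siNeg PE, 52.1, 50.8 and 54.1 in siSlc39a2, and 24.3, 19.9 and 18.6 in siSlc39a2 PE. No 2 groups overlapped. It fell 1.51-fold with PE in siNeg (-0.59 ± 0.13, adjusted p = 0.00227 by edgeR), 2.37-fold with PE in siSlc39a2 cells (-1.25 ± 0.13, adjusted p = 9.71e-06), 2.04-fold with knockdown without PE (-1.03 ± 0.13, adjusted p = 2.69e-05) and 3.22-fold with knockdown under PE (-1.69 ± 0.13, adjusted p = 4.57e-07). Its interaction of -0.65 ± 0.18 did not pass in edgeR (adjusted p = 0.0715), but passed in DESeq2 (-0.68, adjusted p = 0.0137), in limma on log2(FPKM + 1) (-0.74, adjusted p = 0.0141), and in edgeR without siNeg replicate 1 (-0.78, adjusted p = 0.03) or without siSlc39a2 PE replicate 1 (-0.83, adjusted p = 0.0224). By edgeR none of the 9 members passed for the interaction, against 3.61% of all genes, and 4 had an unadjusted p below 0.05. DESeq2 called 1 member, Myl7.

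The essential light chains, which stiffen the lever arm of the head, differed in direction under PE, and both had lower values after knockdown. Myl3 was the member with the highest FPKM in every group, with means of 5331 ± 398 with siNeg, 4766 ± 239 with siNeg PE, 4623 ± 321 with siSlc39a2 and 4036 ± 403 with siSlc39a2 PE (SD, n = 3). Of the pairs of groups compared, only siNeg PE and siSlc39a2 PE did not overlap. Myl3 was lower under PE in siNeg (-0.25 ± 0.10, adjusted p = 0.0468 by edgeR), after knockdown without PE (-0.35 ± 0.10, adjusted p = 0.00936) and after knockdown with PE (-0.25 ± 0.10, adjusted p = 0.0435), and its value under PE in siSlc39a2 cells was -0.15 (95% interval -0.35 to 0.06). The first call was lost without siNeg replicate 1 (-0.17) or 2 (-0.25) or siNeg PE replicate 2 (-0.24) or 3 (-0.21), the second without siSlc39a2 replicate 3 (-0.28), and the third without siNeg PE replicate 1 (-0.20) or 2 (-0.26) or siSlc39a2 PE replicate 2 (-0.26) or 3 (-0.16). All 3 were lost with limma on log2(FPKM + 1), at -0.21, -0.13 and -0.09. In edgeR the first was also lost with no filter on low counts (-0.23) or with only the groups compared (-0.23). With RLE in place of TMM scaling it was -0.24 and was lost as well (adjusted p = 0.0501 by edgeR).

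Myl4, the atrial and fetal essential light chain gene, rose with PE and fell with knockdown. It had 133, 109 and 118 FPKM in siNeg, 212, 257 and 238 in siNeg PE, 51.4, 56 and 50.5 in siSlc39a2, and 85.1, 79.2 and 82.8 in siSlc39a2 PE. No 2 groups overlapped, and siSlc39a2 PE stayed below untreated siNeg. PE raised it 1.85-fold in siNeg (0.89 ± 0.09, adjusted p = 1.22e-05 by edgeR) and 1.62-fold in siSlc39a2 cells (0.69 ± 0.09, adjusted p = 5.70e-05), and knockdown lowered it 2.51-fold without PE (-1.33 ± 0.09, adjusted p = 1.39e-07) and 2.87-fold with PE (-1.52 ± 0.09, adjusted p = 3.49e-08).

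Atrial markers outside the members were read beside Myl7 and Myl4. In the 4 comparisons, 49.2% to 60% of all tested genes passed. Of 8 markers, 6 were tested, and 1 was higher and 1 lower in each comparison, except under knockdown with PE, where 2 were lower. Their summed FPKM was 218 to 248 with siNeg, 2885 to 4580 with siNeg PE, 387 to 425 with siSlc39a2 and 6842 to 7502 with siSlc39a2 PE, of which Nppa, a natriuretic peptide gene that is also a marker of hypertrophy, had group means of 146, 3848, 313 and 7135. Bmp10, restricted to the atria after birth, was at 0 to 0.06 FPKM in all samples and at 0 in all of siNeg PE, and sarcolipin (Sln) was at 0.53 to 3.73. Their part in the results for Myl7 and Myl4 was not tested.

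The binding protein genes moved apart under both treatments. Mybpc3 had 650, 649 and 675 FPKM in siNeg, 498, 522 and 531 in siNeg PE, 435, 430.5 and 419 in siSlc39a2, and 373, 366 and 334 in siSlc39a2 PE. The 4 groups were separate, in that order. It fell in every comparison by edgeR, by 0.43 ± 0.06 on the log2 scale under PE in siNeg (adjusted p = 1.05e-04), by 0.20 ± 0.06 under PE in siSlc39a2 cells (adjusted p = 0.00872), by 0.76 ± 0.06 after knockdown without PE (adjusted p = 3.02e-07) and by 0.54 ± 0.06 after knockdown with PE (adjusted p = 7.18e-06). The second of these was lost with limma on log2(FPKM + 1), at -0.09.

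Mybpc2 had 0.51, 0.58 and 0.88 FPKM in siNeg, 7.04, 10.4 and 11.3 in siNeg PE, 1.84, 2.19 and 2 in siSlc39a2, and 17.3, 17.5 and 15.9 in siSlc39a2 PE. The 4 groups were separate, with siSlc39a2 PE highest and siNeg lowest. It was the member with the largest fold change under PE, 13.9-fold in siNeg (3.79 ± 0.20, adjusted p = 3.99e-08 by edgeR) and 8.73-fold in siSlc39a2 cells (3.13 ± 0.18, adjusted p = 4.47e-08). It was also the only member that rose after knockdown in edgeR, 2.79-fold without PE (1.48 ± 0.21, adjusted p = 7.77e-05) and 1.75-fold with PE (0.81 ± 0.16, adjusted p = 7.35e-04). On the log2(FPKM + 1) scale, where the pseudocount shrinks changes of low values, limma gave 2.62 under PE in siNeg and 0.78 after knockdown without PE. Its interaction of -0.67 ± 0.26 did not pass (adjusted p = 0.222). In siSlc39a2 PE, where it was highest, Mybpc2 was still 4.51% ± 0.0778 (SD, n = 3) of the summed FPKM of Mybpc2 and Mybpc3, against 0.0993% ± 0.0272 in siNeg.

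Markers of fast skeletal muscle, where Mybpc2 is the usual form, were low in all samples. In the 4 comparisons, 49.2% to 60% of all tested genes passed. Of 12 markers 5 were tested, of which 2 were higher and 1 lower under PE in siNeg, and 3 higher under PE in siSlc39a2 cells. After knockdown 3 were lower without PE and 2 with PE. These counts include Myl1, called higher under PE in both siRNA groups. They also include Myh1, called lower under PE in siNeg and after knockdown without PE. The calls of Myl1 and Myh1 carry no weight, for the reason given at the end of this paragraph. Their summed FPKM was 3.99 to 5.08 with siNeg, 7.56 to 7.92 with siNeg PE, 1.69 to 3.13 with siSlc39a2 and 3.96 to 5.22 with siSlc39a2 PE. The sum was thus higher under PE and lower after knockdown, whereas Mybpc2 was higher in both, and the part of such cells in the result was not tested. The fast heavy chain gene Myh4 was at 0 in all samples of siNeg PE and siSlc39a2 and at most at 0.02 elsewhere, and Myh2, Tnni2 and Mybpc1 reached at most 0.05, 0.12 and 0.07. The fast essential light chain gene Myl1 rose with PE (2.61 ± 0.34, adjusted p = 8.47e-05 by edgeR), from 0.343 to 2.21 mean FPKM in siNeg cells, and Atp2a1, the fast muscle calcium pump gene, rose as well (0.86 ± 0.14). The fast heavy chain gene Myh1 fell under PE in siNeg (-3.23 ± 0.42, adjusted p = 7.58e-05) and after knockdown without PE (-3.38 ± 0.43), from 0.21 to 0.02 and 0.0233 mean FPKM, and Atp2a1 (-1.78 ± 0.16) and the parvalbumin gene Pvalb (-1.23 ± 0.32) fell after knockdown without PE. Myh1 had 20.8 to 40.5 expected counts in siNeg and at most 6 elsewhere. Myl1 had 33 to 51 with PE and at most 8 without. Both thus passed the filter on low counts only through the groups where they were high. That selection favours the directions given, so the p-values of Myh1 and Myl1 carry no weight for them.

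**Figure D4:**
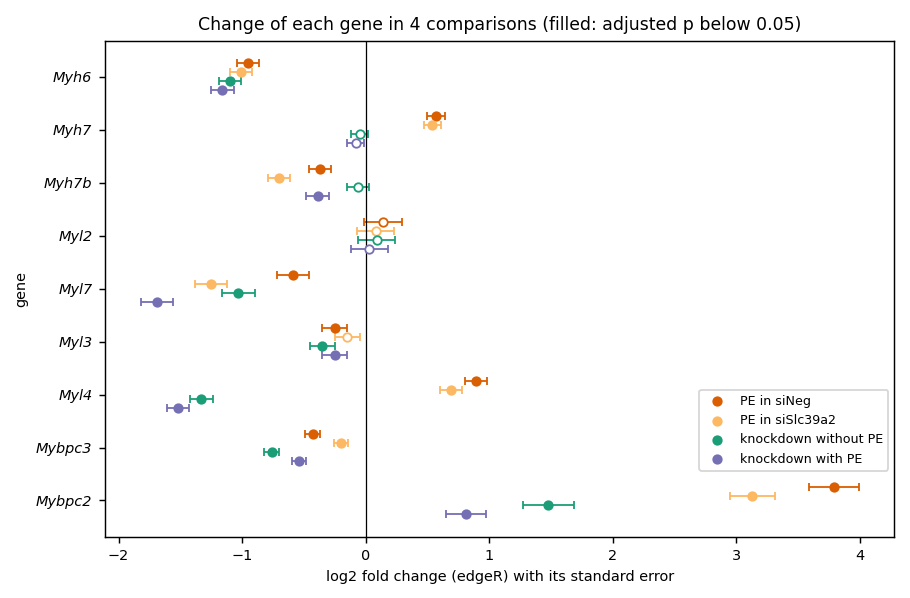
Log2 fold change of each of the 9 genes (vertical axis) from edgeR with its standard error (bars) in the 4 comparisons (colours), on a linear horizontal axis. Filled points passed an adjusted p of 0.05 and open points did not. Mybpc2 lies at 3.79 and 3.13 under PE, Myl4 is above 0 under PE and below 0 after knockdown, and the 4 points of Myl2 are open.

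The other isoform pairs were also compared by their ratio, which does not depend on the library total. The FPKM ratio of Myl7 to Myl2 was 2.09-fold lower under PE (mean log2 difference -1.06) and 2.65-fold lower after knockdown (-1.41). That of Myl4 to Myl3 was 1.99-fold higher under PE (0.99) but 2.18-fold lower after knockdown (-1.13), and that of Mybpc2 to Mybpc3 was 13.7-fold higher under PE (3.78) and 3.54-fold higher after knockdown (1.82). With a pseudocount of 1 on FPKM the last ratio differed by 2.92 under PE and by 1.40 after knockdown. Each of these 6 mean differences had p = 0.005 and adjusted p = 0.005 by the exact permutation test, the smallest it allows. In siNeg and siSlc39a2 cells the PE folds were 1.7 and 2.56 for Myl7 to Myl2, 2.2 and 1.8 for Myl4 to Myl3, and 18.7 and 10.1 for Mybpc2 to Mybpc3. Without and with PE the knockdown folds were 2.16 and 3.25, 1.97 and 2.41, and 4.82 and 2.6 in the same order. Whether the folds of a pair differed was not tested. Groups did not overlap in any single comparison. Ranges that do not overlap are common here: in the comparisons of PE in siNeg, PE in siSlc39a2, knockdown without PE and knockdown with PE, 8, 7, 6 and 7 members had separate FPKM ranges, against 57.5%, 64.7%, 60.2% and 62.7% of all genes.

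**Figure D5:**
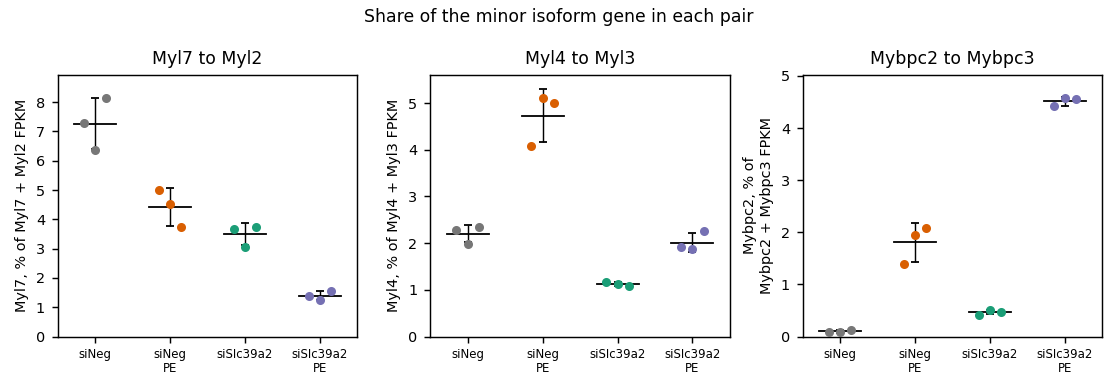
Share of Myl7 in Myl7 plus Myl2, of Myl4 in Myl4 plus Myl3 and of Mybpc2 in Mybpc2 plus Mybpc3, in percent of summed FPKM (vertical axes, each from 0). Points are the 3 samples of a group, lines the means and bars 1 SD. Group means ran from 7.27% in siNeg to 1.4% in siSlc39a2 PE for Myl7, from 1.13% in siSlc39a2 to 4.73% in siNeg PE for Myl4 and from 0.0993% in siNeg to 4.51% in siSlc39a2 PE for Mybpc2.

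The order of the members by FPKM in siNeg was Myl3, Myh6, Myh7, Myl2, Mybpc3, Myl4, Myl7, Myh7b and Mybpc2, with no overlap between neighbours. The place of Myh6 above Myh7 there depends on the sample-dependent length of Myh7. In expected counts their ratio, Myh7 to Myh6, was 1.08, 0.796 and 0.796 in siNeg. In the other groups Myh7 and Myl2 stood above Myh6, although Myl2 and Myh6 overlapped in siNeg PE and were separated by less than 1 FPKM in siSlc39a2. Mybpc2 passed Myh7b in both PE groups, and Myl4 and Myl7 overlapped in siSlc39a2.

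Other genes of the thick filament were counted from lists. Of all tested genes, 49.7% passed under PE in siNeg and 49.2% after knockdown without PE. Of 15 partners of the thick filament and M-band, 3 were higher and 9 lower under PE in siNeg, and 4 higher and 6 lower after knockdown without PE. Ckm, the muscle creatine kinase of the M-band, fell in both (-1.13 ± 0.10, adjusted p = 4.47e-06, and -0.91 ± 0.10, adjusted p = 1.10e-05, by edgeR). Myoz2, a calcineurin-binding protein of the Z-disc, rose with PE (1.14 ± 0.06, adjusted p = 3.47e-08), whereas the myomesin genes Myom2 and Myom3 fell (-1.09 ± 0.16 and -1.45 ± 0.11). After knockdown without PE, Myom3 rose (0.71 ± 0.11, adjusted p = 1.26e-04). The cytoskeletal linker gene Obsl1 fell after knockdown (-0.77 ± 0.06, adjusted p = 4.50e-07).

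Among 8 tested light chain kinase and phosphatase genes, 6 were higher and 1 lower under PE in siNeg, and 4 higher and 1 lower after knockdown without PE. The shares of all tested genes that passed in these comparisons were 49.7% and 49.2%, also for the myosin II genes below. Mylk3, the cardiac kinase of the regulatory light chain, rose with PE (1.06 ± 0.08, adjusted p = 1.48e-06 by edgeR) and after knockdown (0.50 ± 0.08, adjusted p = 3.45e-04). Ppp1cb, the catalytic subunit of myosin phosphatase, rose in the same comparisons (0.87 ± 0.17 and 0.85 ± 0.17), as did the kinase gene Rock2 (1.02 ± 0.15 and 0.72 ± 0.15). Of 8 genes of non-muscle and smooth muscle myosin II, none was higher and 2 were lower under PE in siNeg, and 5 were lower after knockdown without PE, among them Myh9 (-1.02 ± 0.24) and Myl9 (-0.77 ± 0.08). Of 11 other sarcomeric myosin genes in the files 5 were tested. In each of the 4 comparisons 1 was higher and 1 lower, where 49.2% to 60% of all tested genes passed. The higher gene under PE was Myl1 in both siRNA groups. The lower gene under PE in siNeg and after knockdown without PE was Myh1. Both were also counted among the fast skeletal muscle markers, and their calls carry no weight for the reason given there.

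Of 28 transcription factor genes known from the control of cardiac myosin genes, 5 were higher and 9 lower under PE in siNeg, and 3 higher and 9 lower after knockdown without PE. Of all tested genes, 49.7% and 49.2% passed in these comparisons, so the counts of the list lie near the general share. Thra, the thyroid hormone receptor that acts on both heavy chain genes, fell after knockdown (-0.76 ± 0.08, adjusted p = 4.30e-06 by edgeR) and under PE (-0.58 ± 0.08, adjusted p = 8.44e-05). Its partner Rxra fell under PE (-0.94 ± 0.08, adjusted p = 4.19e-06). Tead4, a factor of the MCAT motif, rose with PE (0.99 ± 0.18, adjusted p = 7.45e-04) from 0.767 to 1.62 mean FPKM, and Tbx20 rose as well (0.90 ± 0.19, adjusted p = 0.00233). Expected counts of Myh1, Mylk3, Myh9, Myom3, Thra and Tead4 were not all whole, so their changes are uncertain in the same way as those of the heavy chains. The same holds for the levels of Actc1, which the sum of cardiomyocyte markers followed.

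The genes whose log2 CPM followed a member most closely over the 12 samples were searched among 11739 genes, as a description of samples that fall into 4 groups. For Myh7 they were Cerk (Pearson r = 0.987), Rfc4, Ndufaf7, Inha and Scd, for Myh6 they were Maged1 (r = 0.991), Gtf3c1, Gtf2i, Zfp319 and Fmod, and for Mybpc2 they included Lamb3 (r = 0.991), Stard4, Prim1 and Enc1.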

How the data were processed

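Total RNA was extracted from neonatal rat ventricular myocytes in 4 groups of 3 samples and sequenced. The authors deposited unnormalized expected counts and FPKM values for 18483 genes, and the submitters' processing notes name HISAT, Bowtie2 and the build Rnor_6.0; the counting program is not given in the sources used here. Of the expected counts, 78.7% were whole numbers. From these, counts were rounded, filtered by filterByExpr (4516 genes left out), scaled by TMM and fitted over all 4 groups by the quasi-likelihood test of edgeR 4.0.16 (R 4.3.3; 8 residual degrees of freedom), with Benjamini-Hochberg adjustment over 13967 genes. P-values of edgeR set a difference of groups against the spread between samples, estimated over all 4 groups and moderated across genes. Levels of different genes were compared in FPKM only, and isoform ratios were tested by exact permutation over samples. In simulated data for the comparison of PE in siNeg, edgeR recovered 99 of 100 genes changed by 1 and 100 of 100 changed by 2 on the log2 scale, with 6 false calls among 13720 genes. The simulated counts had the same spread for every gene and no sample effects, and few genes changed, none of them at low counts. The simulation thus checks the code and does not measure performance on the real samples. DESeq2 1.42.0, limma 3.58.1 after quantile normalization by normalizeBetweenArrays (the study names limma and this function, not its method) and further settings were tried as alternatives. All members are named; at most 4 called genes with the largest change were named per list and comparison, with up to 5 most similar genes for Myh7, Myh6 and Mybpc2, and some genes that these rules would name are not reported here; Myh2, Myh4, Tnni2, Mybpc1, Bmp10 and Sln were named after their values were seen. Members and lists were chosen with earlier results of these data known. Depth was 24065539 to 28603854 counts per sample, and no sample was a copy of another in its group (chi-square over its degrees of freedom at least 4.73).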

Additional observations from a re-analysis of the deposited data

How the results depend on the processing

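All 8 tests of isoform ratios kept their direction and call with expected counts, a pseudocount of 1, pairs of same-numbered samples (replicate block) and every sample left out in turn. The ratio of Myh7 to Myh6 then moved by 1.53 to 1.84 on the log2 scale under PE and by 1.06 to 1.19 under knockdown. Members called with a sample left out were 7 to 8 under PE in siNeg, 7 under PE in siSlc39a2, 5 to 6 after knockdown without PE, 6 to 7 after knockdown with PE and 0 to 1 for the interaction. Over all alternatives, left-out samples included, these counts were 6 to 8, 6 to 7, 5 to 7, 6 to 7 and 0 to 1 in the same order. For the interaction 1 member, Myl7, was called in DESeq2, with no filter on low counts, with the replicate block, and in limma on log2(FPKM + 1) and log2(FPKM + 0.1), which was not called by edgeR as reported; the cause was not tested. Same-numbered samples correlated between -0.0904 and 0.32, with 8 of 18 pairs above 0.1, and unlike-numbered ones between -0.249 and 0.236. Among siNeg, siNeg PE and siSlc39a2 PE all same-numbered pairs were positive, so these values do not settle whether the numbers pair the samples. The main fit has no block because nothing states such a pairing. With the block 1053 genes passed for the interaction, against 504 without it, and the block changed no other count of members.

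Directions turned in limma on log2(count + 1) for Myh7 under PE in siSlc39a2 cells (-0.30) and after knockdown without PE (0.20), for Myl3 after knockdown without PE (0.12), and for the interactions of Myh6 (0.07), Myl3 (-0.17) and Mybpc3 (-0.03). Quantile normalization there sets a gene's value by its rank, and Myh7 ranked 1 or 2 in every sample. In limma on both FPKM scales Myh7 turned to 0.51 after knockdown without PE and to 0.03 with PE. Leaving out 1 sample turned only uncalled values, which ranged for Myl2 from -0.00 to 0.24 under PE in siNeg, -0.07 to 0.23 under PE in siSlc39a2 cells, -0.05 to 0.19 and -0.10 to 0.18 after knockdown without and with PE, and -0.23 to 0.09 for its interaction. They ranged from -0.09 to 0.01 for Myh7 and from -0.15 to 0.01 for Myh7b after knockdown without PE, and for the interaction from -0.15 to 0.03 for Myh6, -0.09 to 0.01 for Myh7 and -0.01 to 0.18 for Myl3.

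With 3 samples per group, the small changes of Myl3 lay close to the threshold. FPKM of Myh7 carries a sample-dependent length, and genes with shared reads carry the error of their allocation.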
